A study of Drosophila melanogaster with 10 samples.

Results

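The proteasome subunit genes were the genes whose symbol in the platform annotation starts with Prosalpha, Prosbeta, Rpn or Rpt followed by a digit, with the brightest probe set, averaged over arrays, standing for the gene. Of 11982 named genes on the array, 40 met this rule, and each had 1 probe set. They were 26 ubiquitous subunits and 14 testis-type copies, recognised by a symbol that ends in T or R with or without a further digit. One more probe set was shared by Prosalpha1 and Prosalpha1R and is described without being counted, and 6 of the 48 RefSeq genes that meet the rule (Prosbeta1, Rpn9, Rpn10, Rpt1, Rpt6 and Rpt6R) had no probe set named for them here and were not analysed here.

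Transcripts were measured with Drosophila expression arrays on total RNA from salivary glands and from Kc cells, a line of embryonic origin. One set of glands was labelled H1 RNAi and the other nau RNAi (3 arrays each), where the RNAi was expressed in transgenic flies under the Tub-Gal4 driver, which is broadly active, so that the gland was not the only tissue affected; per the labels, crosses were kept at 18 °C and knockdown was at 29 °C from the embryo on, and no stage or age is given for the glands. The Kc cells received dsRNA against the linker histone H1 or against GFP (2 arrays each) on days 0, 2 and 4, each time for 1 hour in medium lacking serum, and were sampled on day 6 per the sample labels, whereas the series design text gives a single treatment. Per the labels these cells were grown at 25 °C. The controls of both systems therefore carried an RNAi of their own, against nau (Nautilus, a myogenic transcription factor) and against GFP. Separate cultures or dissections are not stated for the arrays within a group, so the p-values rest on a spread that may be technical.

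The 26S proteasome degrades proteins tagged with ubiquitin. Its 20S core is a barrel in which rings of alpha subunits (Prosalpha genes) form the gate and rings of beta subunits (Prosbeta genes) hold the proteolytic sites. The 19S particle caps the barrel. Its base contains a ring of Rpt ATPases that unfold substrates and pull them into the core, with the scaffold proteins Rpn1 and Rpn2 and the ubiquitin receptor Rpn13. Its lid of other Rpn proteins carries Rpn11, which removes ubiquitin from the substrate. Drosophila has additional copies of several subunit genes, and the copies that have been studied are expressed in the male germline, where some replace the ubiquitous subunit in the proteasome of developing sperm.

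Levels below are log2 intensities, and arrays had medians of 4.23 to 4.31 in glands labelled H1 RNAi, 4.19 to 4.22 in glands labelled nau RNAi, 4.139 to 4.141 in H1 Kc cells and 4.110 to 4.116 in GFP Kc cells. Signal near background was taken from the 17 Tag controls of the array, which have no fly target. Their 95th percentile was 3.55, called the Tag level below, and their highest value was 4.08. The linker histone gene has no probe set named for it here, so its depletion was not measured. The nau signal went against the gland label, at 3.36 to 3.53 in glands labelled H1 RNAi and 5.50 to 6.02 in glands labelled nau RNAi, and every gland direction therefore refers to the labels. The group means of all 10 salivary gland markers lay above the Tag level in both gland groups, as did those of all 10 haemocyte markers in both Kc groups, although the haemocyte markers PPO1 and NimC1 stayed under the highest Tag value on every Kc array. All 10 haemocyte markers also lay above the Tag level in both gland groups. Of the gland markers 4 lay under it in each Kc group and the rest above. In glands 8 of the 10 gland markers fell, and of the haemocyte markers 7 rose and 1, Pxn, fell (-1.15), with summed intensities of 25500 to 28735 in glands labelled H1 RNAi and 106532 to 110701 in glands labelled nau RNAi for the gland markers, and of 6602 to 6862 and 4109 to 4819, in the same order, for the haemocyte markers. At an adjusted p under 0.05, 21.9% of all probe sets were lower and 18.8% higher in glands. In Kc cells 2 of the 10 haemocyte markers fell, He (-3.46) and eater (-2.02), where 1.21% of all probe sets were called lower. Fat body markers were also strong in the gland samples. The 4 measured summed to 53380 to 55396 under the H1 label and 49158 to 53007 under the nau label. The part of all these markers in the proteasome results was not tested. Fewer cells of a type and less RNA per cell cannot be told apart in such bulk samples.

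In the glands, calls under the H1 RNAi label were mostly downward. Of the 26 ubiquitous subunits 10 fell and 2 rose at an adjusted p under 0.05 (limma, Benjamini-Hochberg over all 18769 probe sets), where 40.7% of all probe sets were called, 21.9% lower and 18.8% higher. Among the 1199 probe sets with a mean level of 10 or more, 60.4% were called, 32.4% lower and 27.9% higher. These subunits lie in that range, except Rpn1, whose mean over all arrays was lower. The count of 10 of 26 (38.5%) was thus close to that of other strongly expressed transcripts. The median change of the ubiquitous subunits was -0.14, beside -0.08 over all probe sets and -0.03 over those with a mean level of 10 or more. Within the 19S particle 8 of 14 subunits fell and 1 rose, with a median of -0.29, and within the 20S core 2 of 12 fell and 1 rose, with a median of -0.07. Between these 2 parts of the complex no test was made.

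**Figure D1:**
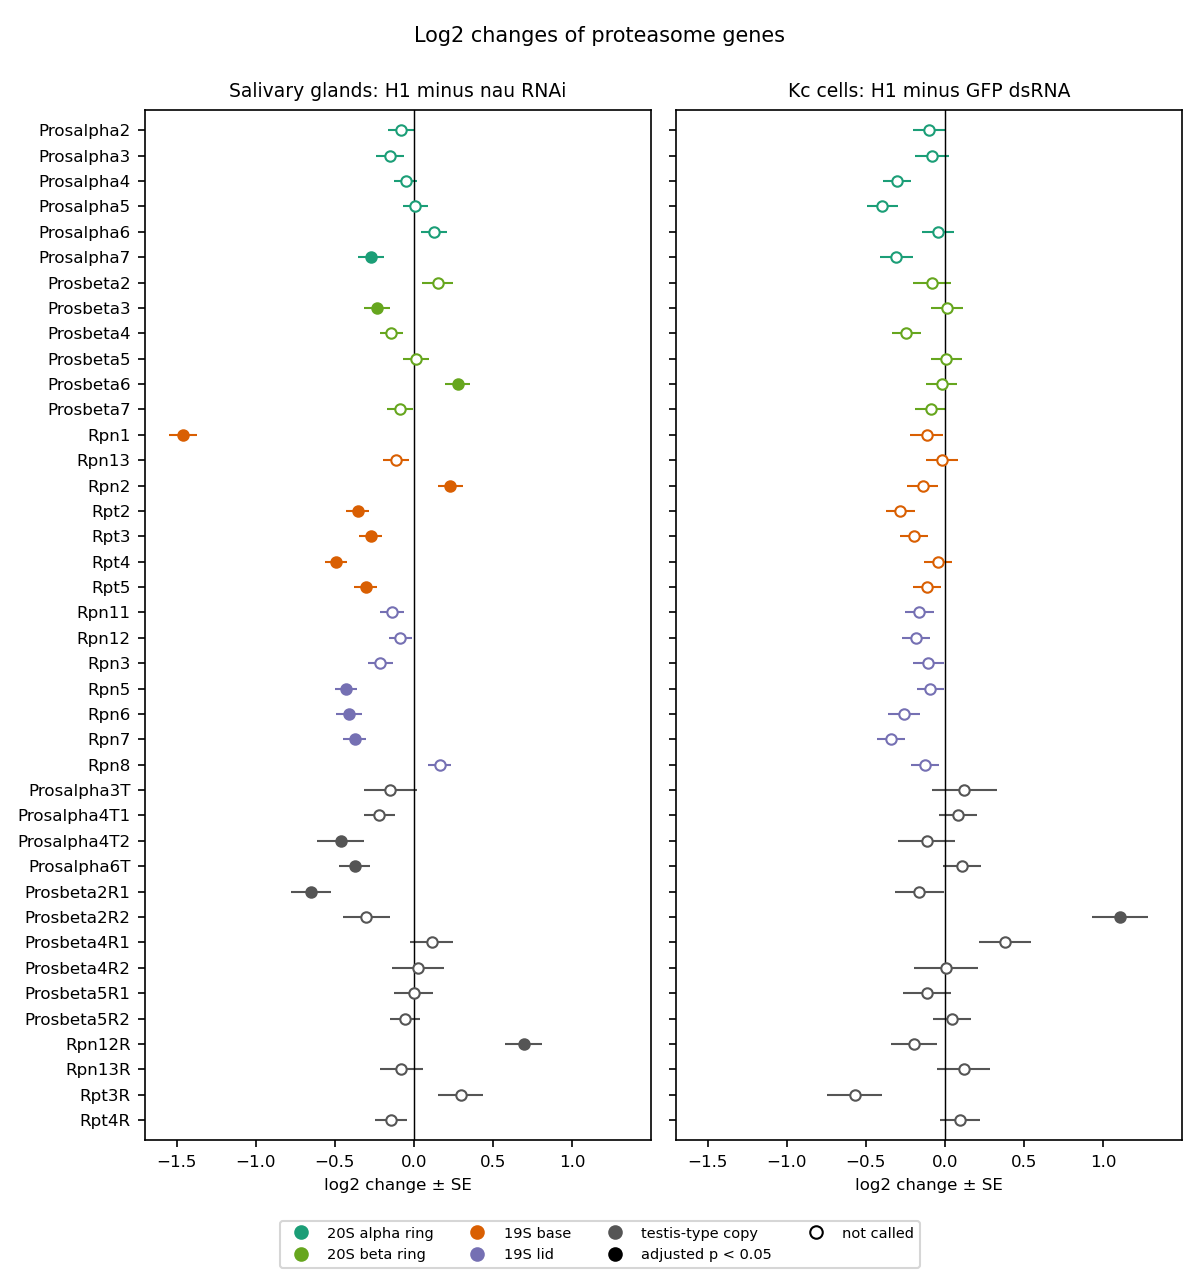
Log2 change with its standard error (x axis) of the 40 proteasome genes (y axis), in salivary glands on the left (H1 minus nau RNAi label) and in Kc cells on the right (H1 minus GFP dsRNA); filled points have an adjusted p under 0.05 and open points do not. Rpn1 at -1.46 stands apart in the glands, the 4 measured Rpt ATPases lie between -0.49 and -0.27 there, and in Kc cells Prosbeta2R2 at 1.11 is the filled point.

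Rpn1 carried the largest change of any of the 40 genes in the glands. Rpn1 is a scaffold of the base that, in yeast, binds ubiquitin, shuttle proteins and a deubiquitinase. It was at 8.30, 8.18 and 8.17 on the arrays labelled H1 RNAi, against 9.60, 9.61 and 9.83 on those labelled nau RNAi. The groups lay far apart relative to their spread, and the log2 change was -1.46 (standard error 0.0867, adjusted p = 1.12e-06), a 2.75-fold lower signal. With every alternative processing and with each array left out in turn the Rpn1 change stayed called and lay between -1.52 and -1.39. The related scaffold Rpn2 moved the other way, at 11.58, 11.53 and 11.67 in glands labelled H1 RNAi and 11.43, 11.30 and 11.36 in those labelled nau RNAi. Its groups did not overlap and it rose by 0.23 on the log2 scale (adjusted p = 0.0448), but this call was lost in 9 of the 10 fits that left out 1 array, with adjusted p up to 0.125 without array c labelled H1 RNAi. It was also lost with median-centred arrays (adjusted p = 0.123), quantile normalization, each system fitted alone, array weights and the replicate letter as a block.

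All 4 measured Rpt ATPases fell. Rpt4 was at 10.54, 10.55 and 10.65 in glands labelled H1 RNAi and 11.10, 11.05 and 11.07 in glands labelled nau RNAi, a change of -0.49 (standard error 0.0723, adjusted p = 0.000413). Rpt2, whose tail helps open the gate of the core in yeast, was at 10.08, 10.12 and 10.20, against 10.51, 10.43 and 10.53 under the nau label. Its change was -0.36 (adjusted p = 0.0037). Both genes had every array labelled H1 RNAi below every array labelled nau RNAi, as had 28.1% of all probe sets, with gaps several times the spread within a group. Rpt3 was at 10.53, 10.49 and 10.59 in glands labelled H1 RNAi and 10.76, 10.83 and 10.84 in those labelled nau RNAi (-0.27, adjusted p = 0.0131). Rpt5 averaged 10.56 ± 0.05 and 10.86 ± 0.05 (SD, n = 3 each), in the same order, a change of -0.31 (adjusted p = 0.007). The ATPases thus shared a narrow range, from -0.49 to -0.27, and each kept its call in every alternative fit. The remaining base subunit, the ubiquitin receptor Rpn13, was at 10.72, 10.60 and 10.77 in glands labelled H1 RNAi and 10.80, 10.82 and 10.80 in glands labelled nau RNAi (-0.11, adjusted p = 0.297).

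Of the 7 measured lid subunits Rpn5, Rpn6 and Rpn7 fell and the other 4 did not pass. Beside this, 21.9% of all probe sets and 32.4% of those with a mean level of 10 or more were called lower. These 3 are PCI-domain subunits that build the frame of the lid, as are Rpn3 and Rpn12 among those that did not pass. Rpn5 was at 11.19, 11.10 and 11.17 in glands labelled H1 RNAi and 11.57, 11.59 and 11.59 in glands labelled nau RNAi. The nau arrays had an SD of 0.01, and the change was -0.43 (adjusted p = 0.000708). Rpn6, which clamps the lid to the core in yeast, was at 11.14, 10.98 and 11.04, against 11.42, 11.42 and 11.55 under the nau label. Its change was -0.41 (adjusted p = 0.00268). Rpn7 was at 10.29, 10.20 and 10.29 in glands labelled H1 RNAi and 10.63, 10.60 and 10.68 in glands labelled nau RNAi, a change of -0.37 (adjusted p = 0.0026). In all 3 genes the arrays of the groups were fully separated, as in 49% of all probe sets. The same held for Rpn3, Rpn11 and Rpn8, which did not pass. Rpn3 was next (-0.21, adjusted p = 0.0579), and it passed in 5 of the alternative fits. The deubiquitinase Rpn11 (-0.14, adjusted p = 0.167) and Rpn12 (-0.09, adjusted p = 0.378) had lower means, while that of Rpn8, the partner of Rpn11, was higher (0.16, adjusted p = 0.103).

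**Figure D2:**
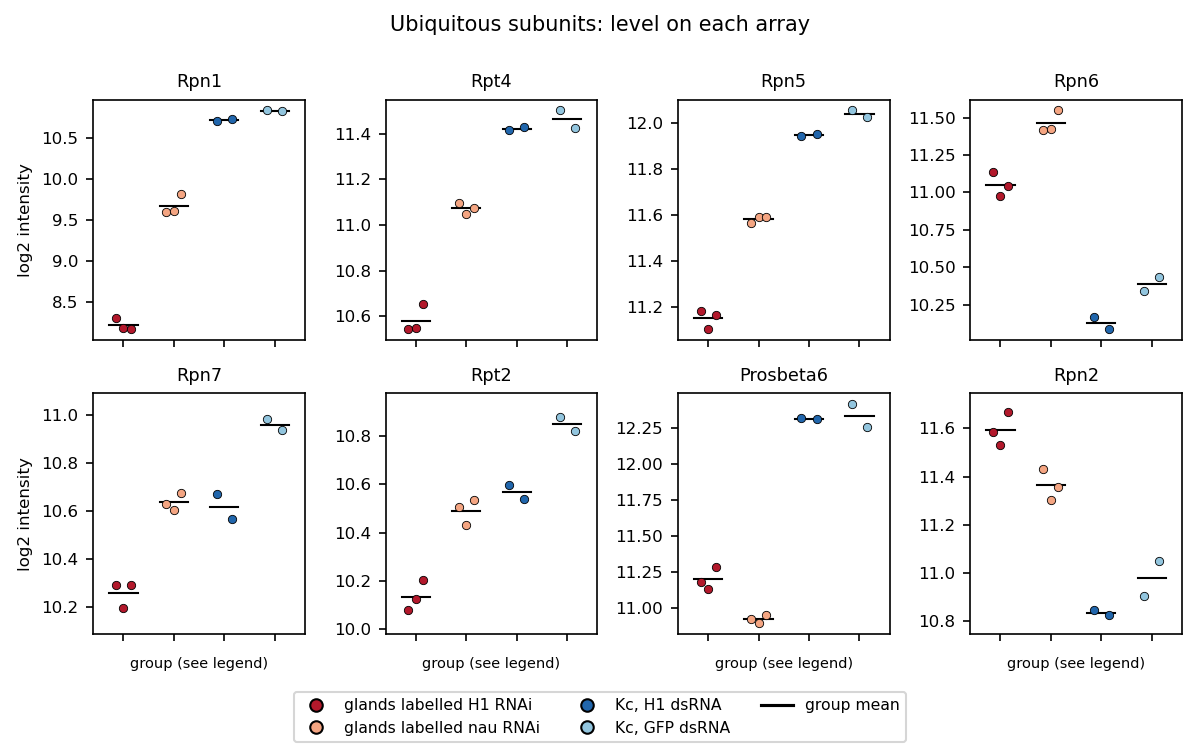
Log2 intensity (y axis, scaled to each gene) on each array of the 4 groups for the 6 ubiquitous subunits with the largest changes in glands and for Prosbeta6 and Rpn2, with a line at each group mean. For the first 6 genes every array labelled H1 RNAi lies below every array labelled nau RNAi, and for Prosbeta6 and Rpn2 every one lies above.

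In the 20S core 9 of 12 measured subunits did not pass in the glands. Prosalpha5 had the smallest change of the ubiquitous subunits, at 11.03, 10.90 and 11.12 in glands labelled H1 RNAi and 11.02, 11.01 and 10.98 in glands labelled nau RNAi. The groups overlapped and the change was 0.01 (adjusted p = 0.944). Prosbeta5, which carries the chymotrypsin-like site, was at 11.45, 11.39 and 11.58, against 11.48, 11.39 and 11.52 under the nau label (0.01, adjusted p = 0.917). Prosbeta2, which carries the trypsin-like site, was at 10.91, 10.84 and 11.18 in glands labelled H1 RNAi and 10.83, 10.78 and 10.87 in glands labelled nau RNAi (0.15, adjusted p = 0.254), with the groups overlapping. Beside these, the counterparts of the testis-type copies gave the following values. Prosalpha3 was at 10.86, 10.80 and 11.01 in glands labelled H1 RNAi and 11.09, 10.98 and 11.06 in glands labelled nau RNAi (-0.15, adjusted p = 0.199). Prosalpha4 was at 11.02, 11.02 and 11.09, against 11.13, 11.06 and 11.10 under the nau label (-0.05, adjusted p = 0.601). The groups overlapped for both of these genes, and so they did for Prosalpha6, at 11.20, 11.23 and 11.34 in glands labelled H1 RNAi and 11.24, 11.04 and 11.10 in glands labelled nau RNAi (0.13, adjusted p = 0.244). Prosbeta4 was at 11.22, 11.16 and 11.27 in glands labelled H1 RNAi and 11.40, 11.29 and 11.39 in glands labelled nau RNAi. These arrays did not overlap, but the change of -0.14 did not pass (adjusted p = 0.149).

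The 3 calls in the core went in both directions and were small; these genes were named after their values were seen. Prosbeta6, a structural beta subunit, was at 11.18, 11.14 and 11.29 in glands labelled H1 RNAi and 10.93, 10.90 and 10.95 in those labelled nau RNAi. It rose by 0.28 on the log2 scale (adjusted p = 0.0191), with no overlap between the groups. That call was lost without array b labelled nau RNAi (adjusted p = 0.0532), without array c labelled H1 RNAi (adjusted p = 0.0638) and with median-centred arrays (adjusted p = 0.0571). Prosalpha7 averaged 10.77 ± 0.10 in glands labelled H1 RNAi and 11.04 ± 0.06 in glands labelled nau RNAi (SD, n = 3 each), a change of -0.27 (adjusted p = 0.0275), and Prosbeta3 averaged 11.67 ± 0.11 and 11.90 ± 0.04 in the same order (-0.24, adjusted p = 0.0453). Prosalpha7 lost its call without H1-labelled array a (adjusted p = 0.082) or b (adjusted p = 0.0833) and without nau-labelled array a (adjusted p = 0.0708) or c (adjusted p = 0.0539). Prosbeta3 lost it in 9 of the 10 fits that left out 1 array, with adjusted p from 0.0612 to 0.138. Prosalpha7 and Prosbeta3 also lost their calls with each system fitted alone, with array weights and with the replicate letter as a block. The probe set shared by Prosalpha1 and Prosalpha1R was at 10.96 ± 0.11 and 11.22 ± 0.05 (-0.26, adjusted p = 0.0268), and its signal cannot be split between the genes.

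Beside the gland decreases, a measure of RNA quality and labelling moved with the label. The 3′ signal of the actin control exceeded its 5′ signal on the log2 scale by 2.11 to 2.48 in glands labelled H1 RNAi and 1.80 to 1.98 in glands labelled nau RNAi. For GAPDH it was 2.45 to 2.63 and 2.09 to 2.18, in the same order. The part of this shift in the proteasome changes was not tested.

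Genes that act with the proteasome outside the rule were examined as a list of 23 assembly factors, activators, shuttles and ubiquitin genes, of which 19 were measured. In the glands 5 fell and 3 rose, beside the 40.7% of all probe sets called there, so the share called was near the background. The median change was -0.05, and in Kc cells, where the median was -0.03, the lowest adjusted p was 0.254, that of Uch-L5. Usp14, the deubiquitinase that docks on Rpn1 in yeast and mammals, was at 10.13 ± 0.05 in glands labelled H1 RNAi and 11.03 ± 0.02 in glands labelled nau RNAi, a change of -0.91 (adjusted p = 7.88e-06). The shuttle protein gene Rad23, whose product binds ubiquitin chains and the base, changed by -0.48 (adjusted p = 0.00045). Txl, a relative of the thioredoxin that associates with the 26S proteasome, changed by -0.38, the deubiquitinase gene Uch-L5, whose product binds Rpn13 in mammals, by -0.28, and Keap1, the adaptor that holds the stress regulator Cnc in check, by -1.01. The increases were those of REG, an activator that caps the core in place of the 19S particle, at 10.43 ± 0.01 in glands labelled H1 RNAi and 9.68 ± 0.18 in glands labelled nau RNAi (0.75, adjusted p = 0.000187), of ntc (0.66), which encodes an F-box protein of sperm differentiation, and of Npl4 (0.38), a cofactor of the unfoldase TER94. The transcripts of cnc (-0.18, adjusted p = 0.0954), Pomp (-0.21, adjusted p = 0.142) and PI31 (-0.07, adjusted p = 0.482), which encode a transcription factor of proteasome genes, an assembly chaperone and a proteasome regulator, did not pass.

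In Kc cells no ubiquitous subunit passed the test, where 1.21% of all probe sets were called lower and 2.89% higher, and 3.59% and 2.34% of those with a mean level of 10 or more. Their changes were small and mostly downward, with 24 of 26 means below those of the GFP cells, a range from -0.40 to 0.01 and a median of -0.12. The median over all probe sets was -0.03, and over those with a mean level of 10 or more it was -0.08, with 68.0% of means below 0. For 19 of the 26 subunits both H1 arrays lay below both GFP arrays, and this held for 32% of all probe sets, with 54.9% not overlapping in either direction. All 14 means of the 19S subunits and 10 of 12 in the 20S core were lower in the H1 cells.

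The ubiquitous subunits with the lowest Kc values were Prosalpha5, Rpn7, Prosalpha7 and Prosalpha4. Prosalpha5, which did not differ beyond its spread in the glands, was at 11.09 and 11.14 in H1 Kc cells and at 11.49 and 11.54 in GFP Kc cells. Its change of -0.40 (standard error 0.0968) narrowly missed the threshold (adjusted p = 0.0566). Rpn7 was at 10.67 and 10.57 in H1 cells, against 10.98 and 10.94 in GFP cells (-0.34, adjusted p = 0.0764), Prosalpha7 at 11.18 and 11.17, against 11.41 and 11.56 (-0.31, adjusted p = 0.17), and Prosalpha4 at 10.67 and 10.70, against 10.94 and 11.03 (-0.30, adjusted p = 0.107). The number of members called lower in Kc cells changed with the fit. It was 0 in this limma fit, in which 7 ubiquitous subunits had an unadjusted p under 0.05, all with a lower mean. It was 3 when each system was fitted alone, 6 with a trended robust prior or an offset added to the intensities, and 8 with array weights. Except with the trended prior, these counts include the testis-type copy Rpt3R. Calls lower in Kc cells over all 18769 probe sets rose as well, from 228 in the main fit. They were 877 with each system alone, 412 with the trended prior, 534 with the offset and 1112 with array weights. At the other end, Prosbeta5 (12.47 and 12.52 in H1 cells, 12.52 and 12.46 in GFP cells) and Prosbeta3 (12.65 and 12.62, against 12.69 and 12.57) had changes of 0.01. Beside these values, the signal of an 18S ribosomal RNA control probe set was 4.02 and 4.16 in H1 cells and 6.05 and 7.96 in GFP cells, and its part in the Kc values cannot be told apart from the treatment.

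Most testis-type copies lay near background in every sample, against levels of 8.22 or more for the mean of each ubiquitous subunit in each group. Of the 14 copies 8 stayed at or under the highest Tag value of 4.08 on all 10 arrays. The median of the 14 was 3.42 in glands labelled H1 RNAi, 3.50 in glands labelled nau RNAi, 3.39 in H1 Kc cells and 3.36 in GFP Kc cells. The copies with every array of at least 1 group above that value were Rpt3R and Prosbeta2R2 in Kc cells, Rpn13R in glands and Rpn12R, by a narrow margin, in glands labelled H1 RNAi.

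**Figure D3:**
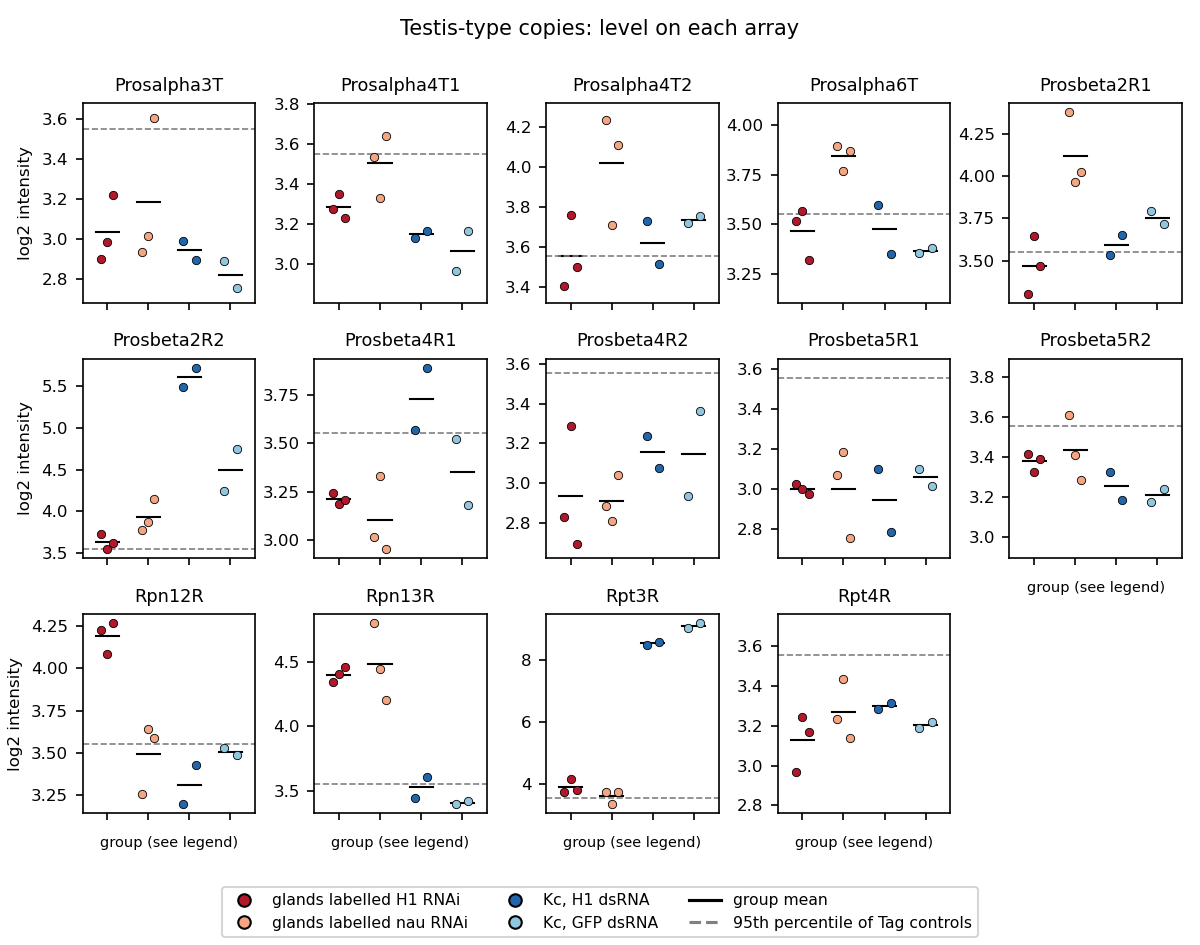
Log2 intensity (y axis, scaled to each gene) on each array of the 4 groups for the 14 testis-type copies, with a line at each group mean and a dashed line at the 95th percentile of the Tag controls (3.55). Rpt3R lies far above the dashed line in Kc cells and near it in glands, Prosbeta2R2 is highest in the H1 Kc cells, and Rpn12R is highest in the glands labelled H1 RNAi.

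Prosbeta2R2, a copy of the beta subunit with the trypsin-like site, was the 1 member of 40 called in Kc cells, where 4.11% of all probe sets were called and 5.92% of those with a mean level of 10 or more. It was at 5.49 and 5.72 in H1 cells and at 4.25 and 4.75 in GFP cells. Both H1 arrays lay above both GFP arrays and above all Tag controls, and it rose by 1.11 on the log2 scale (standard error 0.18, adjusted p = 0.00837), a 2.15-fold higher signal. The call was lost without GFP array a (0.86, adjusted p = 0.0726) and without H1 array b (0.99, adjusted p = 0.102). In glands it was at 3.73, 3.55 and 3.62 under the H1 label and at 3.78, 3.88 and 4.15 under the nau label (-0.30, adjusted p = 0.132). Its ubiquitous counterpart Prosbeta2 was at 11.35 and 11.35 in H1 Kc cells and at 11.47 and 11.40 in GFP Kc cells (-0.08, adjusted p = 0.891). The other Prosbeta2 copy, Prosbeta2R1, was at 3.53 and 3.65 in H1 cells and at 3.79 and 3.72 in GFP cells (-0.16, adjusted p = 0.785).

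Rpt3R, a copy of the ATPase gene Rpt3, was the copy with the highest signal, and that signal was in Kc cells. It was at 8.49 and 8.57 in H1 Kc cells and at 9.02 and 9.19 in GFP Kc cells. In glands it was at 3.76, 4.17 and 3.80 under the H1 label and at 3.75, 3.34 and 3.75 under the nau label. The Kc change of -0.57 (adjusted p = 0.125) and the gland change of 0.30 (adjusted p = 0.13) did not pass, while Rpt3 itself was at 11.16 and 11.18 in H1 Kc cells, against 11.41 and 11.32 in GFP Kc cells (-0.20, adjusted p = 0.348).

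In the glands 1 copy rose and 3 fell, 28.6% of the 14 beside 40.7% of all probe sets, and all 4 lay within or close to the range of the Tag controls. Rpn12R, a copy of a lid subunit gene, was at 4.23, 4.08 and 4.27 in glands labelled H1 RNAi and at 3.26, 3.64 and 3.59 in glands labelled nau RNAi. The nau mean lay under the Tag level, so the increase is at least 0.60 on the log2 scale, or at least 1.51-fold (fitted change 0.70, adjusted p = 0.00101), and its call held in every alternative that kept the probe set. The counterpart Rpn12 was at 10.72, 10.68 and 10.76 under the H1 label and at 10.76, 10.81 and 10.85 under the nau label, without a call. The suffix of the Rpn12R probe set marks it as matching more than 1 transcript. Prosbeta2R1 was at 3.30, 3.64 and 3.47 in glands labelled H1 RNAi and at 4.38, 3.97 and 4.02 in glands labelled nau RNAi, at least 1.45-fold lower (fitted change -0.65, adjusted p = 0.00252). Prosalpha6T was at 3.52, 3.57 and 3.32, against 3.89, 3.77 and 3.87 under the nau label (fitted change -0.37, adjusted p = 0.0126). Both had separated groups, but every Prosalpha6T array lay under the highest Tag value. Prosalpha4T2 was at 3.40, 3.76 and 3.50 in glands labelled H1 RNAi and at 4.23, 3.71 and 4.11 in glands labelled nau RNAi, with overlapping arrays (-0.46, adjusted p = 0.0301). It lost its call without array a (adjusted p = 0.0918) or c (adjusted p = 0.0792) labelled H1 RNAi and without array a (adjusted p = 0.0969) or c (adjusted p = 0.0819) labelled nau RNAi. The call was also lost with quantile normalization, each system fitted alone, array weights (adjusted p = 0.139) and the replicate letter as a block.

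The other copies did not pass in either system. Rpn13R, a copy of the ubiquitin receptor gene, was at 4.34, 4.40 and 4.46 in glands labelled H1 RNAi, at 4.80, 4.44 and 4.20 in glands labelled nau RNAi, at 3.45 and 3.61 in H1 Kc cells and at 3.40 and 3.42 in GFP Kc cells. All gland arrays thus lay above the Tag range and all Kc arrays within it, while the H1 and control arrays differed by less than their spread in glands (-0.08, adjusted p = 0.676). Prosbeta4R1 was at 3.57 and 3.89 in H1 Kc cells and at 3.52 and 3.18 in GFP Kc cells (0.38, adjusted p = 0.323), and at 3.24, 3.18 and 3.21 in glands labelled H1 RNAi and 3.02, 3.33 and 2.95 in glands labelled nau RNAi. Prosbeta4R2, its neighbour by name, was at 2.83, 3.29 and 2.70 under the H1 label and 2.89, 2.81 and 3.04 under the nau label, and at 3.24 and 3.08 in H1 Kc cells and 2.93 and 3.36 in GFP Kc cells. Both stayed under the highest Tag value on every array.

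Prosbeta5R1 had the smallest gland change of the 40 genes, between 2.98 and 3.03 in glands labelled H1 RNAi and at 3.07, 3.18 and 2.75 in glands labelled nau RNAi. Prosbeta5R2 was at 3.42, 3.33 and 3.39, against 3.61, 3.41 and 3.29 under the nau label. Neither rose above the Tag level in Kc cells, where Prosbeta5R1 averaged 2.94 ± 0.22 in H1 cells and 3.06 ± 0.06 in GFP cells (SD, n = 2 each) and Prosbeta5R2 3.25 ± 0.10 and 3.21 ± 0.04 in the same order. Prosalpha3T was at 2.90, 2.99 and 3.22 in glands labelled H1 RNAi and 2.94, 3.01 and 3.61 in glands labelled nau RNAi, Prosalpha4T1 at 3.28, 3.35 and 3.23, against 3.54, 3.33 and 3.64, and Rpt4R at 2.97, 3.24 and 3.17, against 3.23, 3.44 and 3.14. In Kc cells these 3 genes had means of 2.94, 3.15 and 3.30 in H1 cells and 2.82, 3.07 and 3.20 in GFP cells, in the order Prosalpha3T, Prosalpha4T1, Rpt4R.

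Whether a copy moved relative to its counterpart was asked in glands from the per-array difference of their log2 values, which compares changes and not levels. In 6 of 14 pairs these differences did not overlap between the gland groups, upward for Rpn12R (0.78), Rpt3R (0.57) and Rpt4R (0.35) and downward for Prosbeta2R1 (-0.80), Prosalpha6T (-0.50) and Prosbeta2R2 (-0.45). Of all probe sets 49% did not overlap between the gland groups. The exact two-sided permutation test gave p = 0.1 for each of the 6, the smallest value that 3 arrays against 3 can reach, and 0.233 after adjustment over the 14 pairs, so this design could not pass any pair. Rpt4R lay under the Tag level on all 10 arrays with a change of -0.14 of its own, so its value reflects the change of Rpt4 (-0.49), and the value of Rpt3R includes the change of Rpt3 (-0.27). The other 4 copies lay near the Tag level, so the sizes of these differences are fitted values and not measured ratios. For Prosbeta2R2 the same difference was 1.19 in Kc cells.

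Genes of spermatogenesis gave a setting for these copies. Of 36 measured genes in a list of 46, 2 rose and 6 fell in glands, where 40.7% of all probe sets were called, with a median of -0.10. In Kc cells, where 4.11% were called, 2 rose, with a median of 0.00451. Their summed intensity was 6154 to 7879 in glands labelled H1 RNAi and 749 to 787 in glands labelled nau RNAi, and 1434 to 1446 in H1 Kc cells and 1277 to 1283 in GFP Kc cells. In glands labelled H1 RNAi most of the sum came from 1 gene, the testis TAF gene Taf12L, at 12.60 ± 0.19 in glands labelled H1 RNAi and 5.02 ± 1.40 in glands labelled nau RNAi, while 25 of the 36 genes lay under the Tag level in glands labelled H1 RNAi and 22 in glands labelled nau RNAi. The part of testis transcripts in the signals of the copies was not tested.

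The effects of the 2 systems were compared gene by gene in the same fit. For 8 of the 40 genes the gland effect minus the Kc effect passed, 3 of them higher and 5 lower. The test passed for 25.9% of all probe sets (13.3% higher and 12.5% lower) and for 41.5% of those with a mean level of 10 or more (23.4% higher and 18% lower). Rpn1 had -1.34 (standard error 0.137, adjusted p = 0.000103), since its Kc arrays were at 10.71 and 10.73 in H1 cells and at 10.84 and 10.84 in GFP cells. Prosbeta2R2 had -1.41 (adjusted p = 0.00167), Rpn12R 0.89 (adjusted p = 0.00615), Rpt4 -0.45 (adjusted p = 0.0166) and Rpt3R 0.87 (adjusted p = 0.019). Prosalpha5 (0.40, adjusted p = 0.04), Rpn5 (-0.34, adjusted p = 0.0462) and Prosalpha6T (-0.48, adjusted p = 0.047) lay close to the threshold. For the other gland decreases of Rpn6, Rpn7, Rpt2, Rpt3 and Rpt5 the difference from the Kc effect did not pass, with values from -0.19 for Rpt5 (adjusted p = 0.272) to -0.03 for Rpn7 (standard error 0.117, adjusted p = 0.877). Across the 26 ubiquitous genes the changes in the 2 systems had a Pearson correlation of 0.11 and a Spearman correlation of 0.20, or 0.24 and 0.21 without Rpn1, as a description of genes measured on the same arrays.

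**Figure D4:**
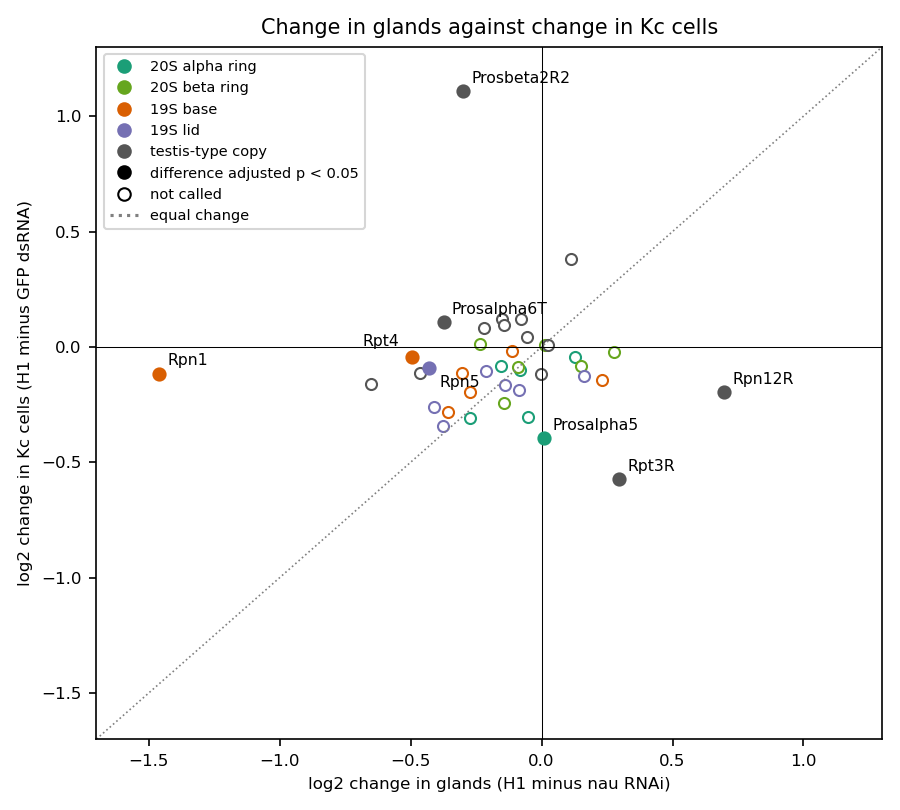
Log2 change in glands (x axis, H1 minus nau RNAi label) against log2 change in Kc cells (y axis, H1 minus GFP dsRNA) for the 40 proteasome genes, coloured by class, with filled points where the gland effect minus the Kc effect has an adjusted p under 0.05. The 8 filled genes are named, and the dotted line marks equal change.

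Levels also differed between the systems, and these are given as a description without a test, since whether cells and glands were normalized together is not stated. The 3′ signal of the actin control exceeded its 5′ signal by 1.80 to 1.98 in glands labelled nau RNAi and 0.40 to 0.49 in GFP Kc cells. For GAPDH it was 2.09 to 2.18 and 0.82 to 0.84, in the same order. The part of this gap in the level differences was not tested. Of the 26 ubiquitous subunits 21 were lower in every gland array labelled nau RNAi than in every GFP Kc array and 5 were higher, with a median difference of -0.48. Of all probe sets 36.6% were lower in every one of these gland arrays than in every GFP Kc array. Over all probe sets the median difference was -0.01, and over those with a mean level of 10 or more it was -0.23. All 6 beta subunits were lower in glands, with differences from -1.41 for Prosbeta6 to -0.43 for Prosbeta4, and Rpn1 (-1.16) and Rpn3 (-1.10) lay within that range. Prosbeta6 had the most negative difference of the 26 (10.92 ± 0.03 in glands labelled nau RNAi, 12.34 ± 0.11 in GFP Kc cells). Rpn6 went the other way, at 11.46 ± 0.07 in glands labelled nau RNAi and 10.39 ± 0.07 in GFP Kc cells, and Rpt5, Rpn2, Rpn13 and Prosalpha4 were also higher in glands. Among the copies Rpt3R had a difference of -5.49.

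**Figure D5:**
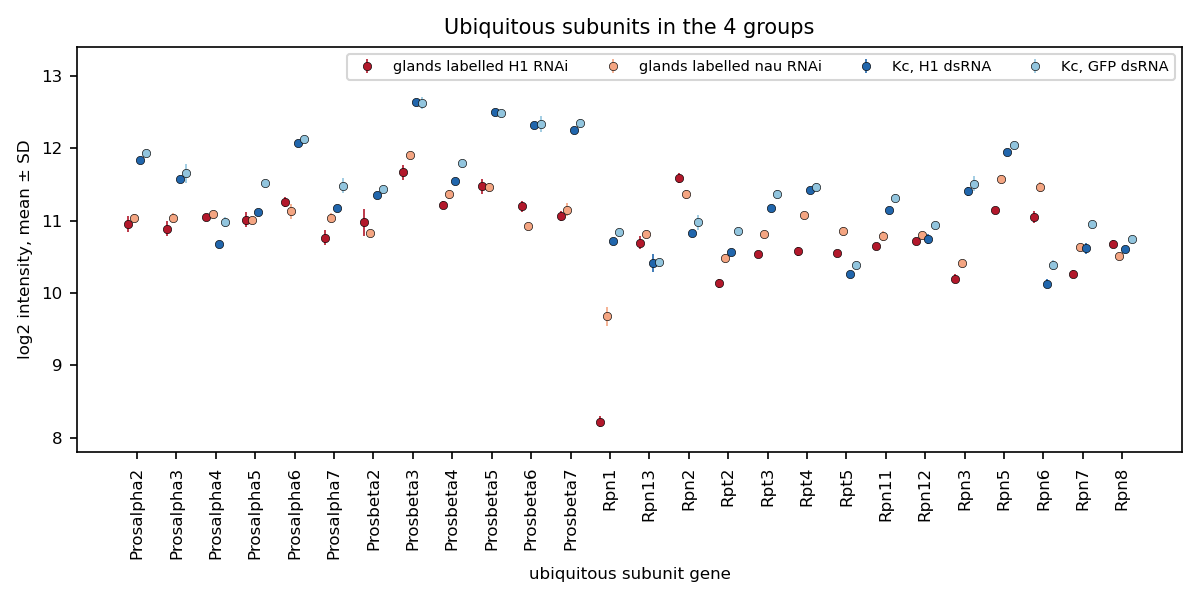
Mean log2 intensity with its SD (y axis) in the 4 groups for each of the 26 ubiquitous subunits (x axis, ordered by ring, base and lid), with 3 arrays per gland group and 2 per Kc group; values of different genes come from different probe sets and are not to be compared as amounts. Rpn1 in glands labelled H1 RNAi is the lowest point at 8.22, and all 6 beta subunits are lower in both gland groups than in both Kc groups.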

How the data were processed

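The deposited table held 1 linear intensity per probe set and array, and RMA, with no version, is the tool given per the submitters' processing notes; the annotation and genome build are not given in the sources used here. The log2 of the deposited intensity was taken, and 183 controls were dropped, leaving 18769 probe sets. limma 3.58.1 (R 4.3.3, lmFit and eBayes) estimated the 4 group means jointly from 10 arrays. Benjamini-Hochberg adjustment covered the 18769 probe sets, with a threshold of 0.05. The fit was tested on simulated data. Array values under the Tag level were raised to it where that group's mean fell short of it, and the fold is then a lower bound. Exact permutation tests used scipy 1.17.1. The number of arrays limits the precision. No reference sequences were used, so a planned search of promoters was not run. The Rpn13R pair was added to the planned pairs after the files were seen.

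Members and gene lists were chosen with earlier results of these data known. Array values were given for every copy and its counterpart, the 6 ubiquitous subunits with the largest called changes in glands and the 2 genes with the smallest changes. Further cell type markers were measured in glands, where 18.8% of all probe sets were called higher and 21.9% lower. Of 4 fat body markers 2 rose and 1 fell, 2 of 4 muscle markers rose, and 3 of 5 neuron markers rose and 1 fell.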

Additional observations from a re-analysis of the deposited data

Results flagged for a closer look

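For 8 of the 40 proteasome genes (20%) the effect under the H1 label differed between the systems. The test was of the gland effect minus the Kc effect (limma, adjusted p under 0.05). It passed for 25.9% of all probe sets and 41.5% of those with a mean level of 10 or more, so the share was not above the background. The differences were -1.34 for Rpn1, -1.41 for Prosbeta2R2, 0.89 for Rpn12R, 0.87 for Rpt3R, -0.45 for Rpt4, 0.40 for Prosalpha5, -0.34 for Rpn5 and -0.48 for Prosalpha6T. Rpn1, Prosbeta2R2 and Rpn12R kept this call in every alternative that measured them. Rpt3R and Rpt4 lost it without Kc GFP array b (adjusted p = 0.0851 for Rpt3R and 0.0787 for Rpt4), without Kc H1 array a (0.0748 and 0.0572, in the same order) and without Kc H1 array b (0.0539 and 0.0638). Prosalpha5 lost it in 8 of the 10 fits that left out 1 array, with adjusted p up to 0.139, Rpn5 in all 10, with adjusted p up to 0.145, and Prosalpha6T in 8, with adjusted p up to 0.197. Prosalpha6T and Rpn12R lie at or near the level of the Tag controls. In glands the same holds for Rpt3R (means of 3.91 under the H1 label and 3.61 under the nau label) and Prosbeta2R2 (3.63 and 3.93).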

How the results depend on the processing

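Of the 25 called results of single genes, 14 kept their call and direction under all alternatives that gave a value, 11 lost the call under at least 1, and none reversed. The number of members called lower in glands was 13 and lay between 10 and 16 in all alternatives. The number called higher in glands was 3. Across the alternative processings it lay between 1 with median-centred arrays and 4 with the trended robust prior or an offset of 16. With 1 gland array left out it was 1 to 3, with 1 without array b labelled nau RNAi or array c labelled H1 RNAi. In Kc cells the number called higher was 1, and 0 to 1 with 1 array left out (0 without GFP array a or H1 array b). The number called lower in Kc cells was 0, also in each fit without 1 gland array. It was 1 with median-centred arrays, the low-signal filter or the mean of a gene's probe sets. It was 3 with each system fitted alone, 6 with the trended robust prior or an offset of 16, and 8 with array weights. Over all 18769 probe sets the same count was 228 in the main fit. In the last 4 fits named it was 877, 412, 534 and 1112. For the difference of effects 3 members were called higher, against 7 with the trended robust prior or the offset of 16. With 1 gland array left out 2 to 4 were called higher. The ranges given for this contrast do not cover fits without 1 Kc array, which keep only 1 array in that Kc group. The number called lower was 5, and 3 to 4 with 1 gland array left out. It was also 3 without probe sets of type x_at or s_at. There Rpn5 (adjusted p = 0.0533) and Prosalpha6T (adjusted p = 0.0505) kept their fitted differences and narrowly missed the threshold. With the replicate letter as a block (replicate block) the difference had 1 higher and 2 lower, and glands 2 higher and 10 lower. What the letters mark is not stated. Deviations of same-lettered arrays from their group means correlated with r from -0.07 to 0.09, which cannot show whether these arrays shared a batch. The number of copy and counterpart pairs without overlap was 6, and 6 to 9 with 1 gland array left out. The median Kc change of the copies was 0.06 and reached 0.0931 without GFP array b, and it turned to -0.00376 with the low-signal filter, to -0.000702 without GFP array a and to -0.0209 without H1 array a. The cause of these shifts was not tested. Copies near the Tag level are limited by signal over background.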
